A study of Mus musculus with 8 samples.

Results

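Mitochondrial ribosomal proteins were examined as a gene family: every gene symbol made of Mrpl or Mrps followed by a digit. This rule took 76 of the 22552 gene symbols in the files, 47 of them Mrpl and 29 Mrps, and it used no measured value. The RNA was ribosome-bound mRNA of UCP1-positive cells, obtained by UCP1-TRAP: under control of Ucp1 regulatory sequence these cells carry GFP-tagged ribosomes, which an antibody against GFP pulls down together with their mRNA. UCP1 is the uncoupling protein that lets brown and beige adipocytes make heat. All mice were females of the strain labelled C57B/6 UCP1-TRAP, aged 6 weeks. They had been born and reared at 30 °C, kept at room temperature from weaning at 3 weeks, and housed at 4 °C for the final 2 weeks, so every group carried the transgene and had been through the cold. The 8 libraries came from inguinal white adipose tissue (inguinal WAT, 3 libraries), perigonadal white adipose tissue (perigonadal WAT, 2 libraries) and brown adipose tissue (BAT, 3 libraries). No warm-housed or unpurified sample was analysed here.

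Mitochondria translate the few proteins encoded by their own DNA, core subunits of the respiratory chain and of ATP synthase, on a ribosome of their own. All of its proteins are made from nuclear genes and imported. The large subunit joins amino acids and holds the exit tunnel, the small subunit reads the mRNA, and beside proteins with bacterial relatives both contain proteins found in mitochondrial ribosomes alone. Brown and beige adipocytes are rich in mitochondria, and their heat production rests on the respiratory chain that these ribosomes help to build. By the subunit in which each product sits, 49 of the 76 genes belonged to the large and 26 to the small subunit. The remaining one, Mrps36, bears a ribosomal name, but its product is now described as a part of the oxoglutarate dehydrogenase complex. The rule on symbols kept Mrps36 in all sums, medians and counts of calls given for the family. Only the values by subunit and by type leave it out. By family, 46 were of bacterial and 29 of mitochondria-specific type.

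Values were FPKM, fragments per kilobase of transcript relative to the mapped fragments of the library, summed over the transcripts of a gene. FPKM totals ran from 75925 in inguinal replicate 3 to 206549 in perigonadal replicate 1, so each result is given as deposited and after median-ratio scaling, which divides each library by a factor between 0.5337 (inguinal replicate 3) and 1.796 (perigonadal replicate 1). Scaling moved the median log2 fold change of all 8958 genes tested from 0.52 to 0.02 for perigonadal WAT against BAT, and from 0.03 to 0.01 when inguinal WAT was set against BAT. Between the white depots, inguinal against perigonadal, it moved from -0.50 to -0.01. The tissue labels were checked with marker genes. Scaled Ucp1 lay between 887 and 1190 FPKM in the 5 white libraries and between 1512 and 1782 in BAT, without overlap, while deposited values overlapped. The 6 brown and beige adipocyte markers summed to 3954 to 5001 FPKM in BAT. Their sums were 1410 to 3156 in inguinal WAT and 3124 to 3377 in perigonadal WAT. The 6 markers of all adipocytes were instead highest in perigonadal WAT, at 5348 to 8586 FPKM. They summed to 2713 to 5345 in inguinal WAT and 3234 to 3863 in BAT. The part of either set in the family's differences was not tested. The 6 smooth muscle markers summed to 45.3 to 141 FPKM in inguinal WAT, 7.90 to 14.2 in perigonadal WAT and 6.90 to 8.24 in BAT, where Tagln and Myl9 were at 0. The 7 mammary luminal markers summed to 95.1 to 116 FPKM in inguinal WAT, 1.96 to 2.91 in perigonadal WAT, where Expi was at 0, and 7.02 to 22.0 in BAT, where 6 of 7 were at 0. The 4 basal epithelial markers summed to 9.03 to 26.1 FPKM in inguinal WAT, at most 1.25 in perigonadal WAT and 0 in BAT. Their part in the differences between inguinal WAT and the other depots was not tested.

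All 76 genes had an FPKM of at least 1 in each of the 8 libraries, and all 76 passed the filter on low values. Most were moderately expressed. The median member stood at 7.20 FPKM in inguinal replicate 3, the lowest library, and at 18.4 in perigonadal replicate 1, the highest. Within each library that median lay above 82.0 to 87.8 percent of the genes tested. The depth behind the values was small: 69 members with 1 transcript were supported by 1 to 212 fragments in a library, with a median of 28. Over these 69 genes the fragments summed to 1151 in inguinal replicate 3, to 4062 in perigonadal replicate 1 and to between 2382 and 2579 in the other 6 libraries. The family's order of levels was similar in all depots, with a Spearman correlation across the 76 genes of 0.81 to 0.93 between single libraries (28 pairs). This correlation describes genes measured in shared libraries and has no test.

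As a family, the 76 genes took a larger share of the translated mRNA in BAT than in either white depot. The summed FPKM as deposited was 1442, 1366 and 744 in inguinal WAT, 1676 and 1365 in perigonadal WAT, and 1787, 1778 and 1610 in BAT. The highest white library, perigonadal replicate 1, exceeded BAT replicate 3 on this scale, and inguinal replicate 3 stood far below the rest. As a percentage of the FPKM total of its library, the sum was 0.986, 0.971 and 0.979 in inguinal WAT, 0.811 and 0.923 in perigonadal WAT, and 1.38, 1.37 and 1.32 in BAT. On that scale inguinal replicate 3 was like its companions and the BAT libraries did not overlap with the 5 white ones. Mean shares were 0.979% ± 0.00755 (SD, n = 3) in inguinal WAT, 0.867% ± 0.0790 (n = 2) in perigonadal WAT and 1.35% ± 0.0336 (n = 3) in BAT. In such samples fewer cells of a type and less RNA per cell cannot be told apart.

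**Figure D1:**
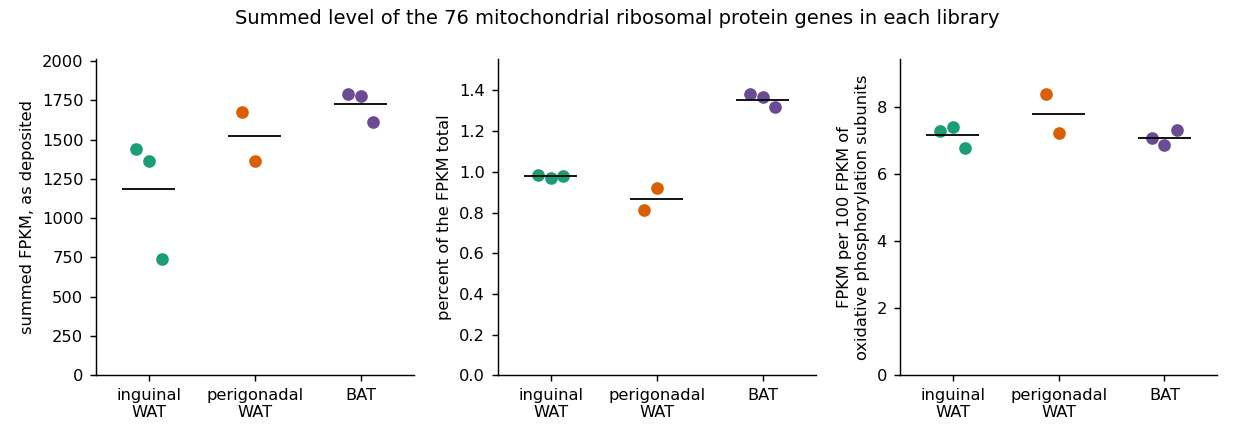
Summed level of the 76 mitochondrial ribosomal protein genes, 1 point per library with the group mean as a line: FPKM as deposited (left), percent of the library's FPKM total (middle) and FPKM per 100 FPKM of oxidative phosphorylation subunits (right). The BAT libraries sit at 1.32 to 1.38 percent, above all 5 white libraries, whereas relative to the oxidative phosphorylation subunits the depots overlap.

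Set against nuclear genes for the respiratory chain and ATP synthase, the 3 depots overlapped. Per 100 FPKM of oxidative phosphorylation subunits, the family summed to 7.27, 7.40 and 6.76 FPKM in inguinal WAT, 8.36 and 7.21 in perigonadal WAT, and 7.08, 6.85 and 7.31 in BAT. Perigonadal replicate 1 was the highest and inguinal replicate 3 the lowest. Per 100 FPKM of cytosolic ribosomal proteins the sums were 27.5, 25.5 and 30.6 in inguinal WAT, 32.5 and 36.8 in perigonadal WAT, and 30.3, 34.1 and 34.4 in BAT. Here inguinal WAT tended to the low side, with inguinal replicate 3 above BAT replicate 1. Small subunit genes summed to 0.480 to 0.494 of the FPKM of large subunit genes in inguinal WAT, to 0.467 and 0.486 in perigonadal WAT, and to 0.421 to 0.449 in BAT, so BAT had the lowest ratios without overlap.

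The levels of single members spanned a wide range. Mrps36 (78.5 FPKM, mean of the 3 group means) and Mrps21 (76.2) led, followed by Mrpl20 (57.6), Mrpl12 (53.8), Mrpl51 (52.0) and Mrpl42 (50.4). Mrps21, a small subunit protein of bacterial type, had the shortest listed transcript of the family at 407 nt. Mrpl20 is a large subunit protein of bacterial type that in bacteria is needed early in subunit assembly. Its FPKM was 70.3, 48.6 and 32.1 in inguinal WAT, 57.3 and 58.5 in perigonadal WAT, and 70.5, 63.7 and 59.6 in BAT. Mrpl51, a mitochondria-specific protein of the large subunit, had 47.8, 51.8 and 29.5 FPKM in inguinal WAT, 60.2 and 53.8 in perigonadal WAT, and 52.6, 60.6 and 54.9 in BAT. As deposited, Mrpl20 was lower in both perigonadal libraries than in any BAT library, and Mrpl51 was lower in all inguinal libraries than in any other, but neither passed the test in any comparison on either scale.

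The stalk of the large subunit recruits translation factors. Mrpl12, its flexible arm, had 57.8, 59.6 and 33.8 FPKM in inguinal WAT, 65.6 and 47.1 in perigonadal WAT, and 70.3, 54.8 and 38.9 in BAT. Mrpl10, on which that arm is mounted, had 32.1, 27.0 and 15.9 FPKM in inguinal WAT, 33.3 and 30.5 in perigonadal WAT, and 33.2, 31.6 and 30.7 in BAT. Neither stalk gene passed the test in any comparison. At the decoding centre of the small subunit, Mrps12 had 19.5, 25.6 and 14.5 FPKM in inguinal WAT, 24.9 and 17.0 in perigonadal WAT, and 25.5, 24.2 and 19.1 in BAT. Mrpl45, which ties the tunnel exit to the inner membrane, had 6.70, 4.30 and 3.92 FPKM in inguinal WAT, 10.2 and 7.36 in perigonadal WAT, and 7.79, 8.0 and 7.52 in BAT. For Mrpl45 every inguinal library lay below every other library, but the adjusted p by limma was 0.867 against BAT. The lowest members were Mrpl19 (2.04 FPKM, mean of group means), Mrps25 (3.01) and Mrpl11 (4.03), a protein of the stalk base.

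**Figure D2:**
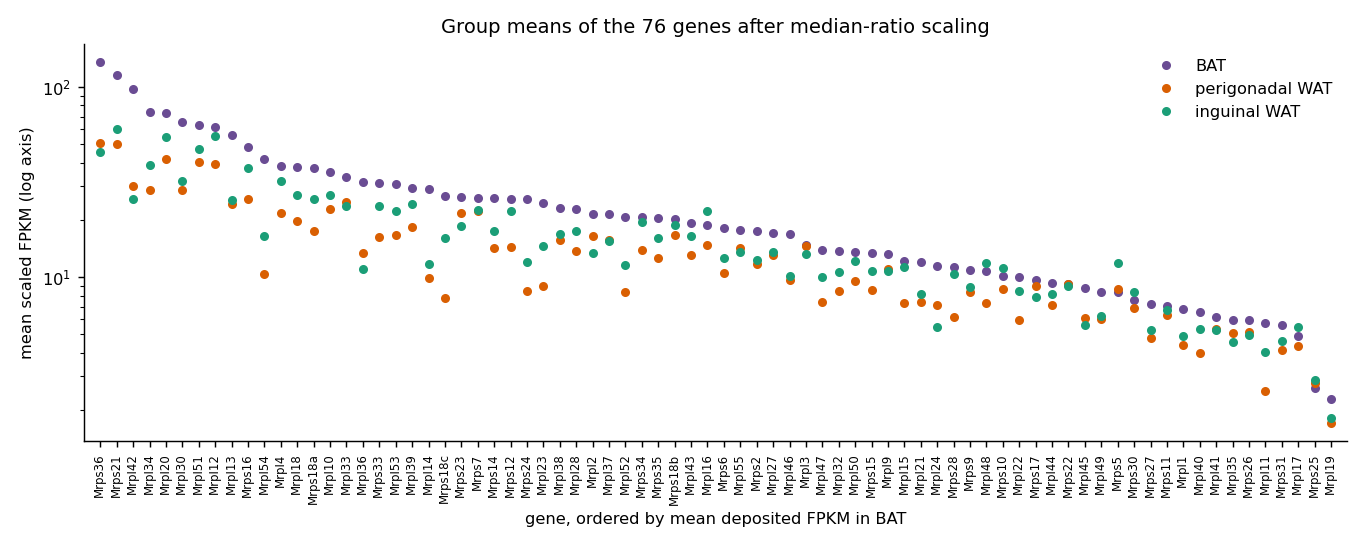
Mean scaled FPKM of each of the 76 genes (log axis) in inguinal WAT, perigonadal WAT and BAT, ordered by the deposited mean in BAT. The depots follow a similar order, with exceptions such as Mrpl54 and Mrpl36, and BAT lies highest for most of the abundant genes at the left, led by Mrps36, Mrps21 and Mrpl42.

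The first comparison set purified RNA of inguinal WAT against that of BAT. The family was lower in inguinal WAT, by a small amount for most genes and by more than 2-fold for a few. The median log2 fold change of the 76 genes was -0.34 as deposited and -0.35 scaled, against 0.03 and 0.01 over all genes tested, and it was -0.28 after quantile normalization. The deposited median leaned on inguinal replicate 3: without it the family was at -0.084 and all genes at 0.28, while the scaled medians were -0.43 and 0.016. As deposited, 68 of 76 members had a log2 fold change below 0, compared with 46.9 percent of all genes tested. Limma, fitted to log2(FPKM + 1) with all 8 libraries and Benjamini-Hochberg adjustment over all 8958 genes, called 3 members lower in inguinal WAT and 0 higher at an adjusted p under 0.05. Of all genes tested, 0.469% were called lower, 1.73% higher and 2.2% in either direction. Without a test, 16 members had all inguinal values below all BAT values, against 5.37% of all genes. The 3 called were Mrpl42, Mrps36 and Mrpl36. After scaling, 10 members were called lower and 0 higher, against a background of 1.63% called lower, 2.98% higher and 4.61% either way. At an unadjusted p under 0.05, limma had 12 members lower and 0 higher as deposited, against 3.14% and 5.39% of all genes, and 25 lower and 1 higher scaled, against 9.71% and 9.97%. The labels do not say that libraries came from separate animals, so the p-values speak only for the spread among these 8 libraries.

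Mrpl42 showed the largest difference. It encodes a mitochondria-specific protein of the large subunit and lies on the minus strand at chr10:94943440-94964561 (mm9, as are all gene positions here). Its FPKM was 27.9, 29 and 14.9 in inguinal WAT, 35.3 and 45.5 in perigonadal WAT, and 83.6, 103 and 73.9 in BAT. The 3 BAT libraries stood far above all white libraries, and inguinal and perigonadal values did not overlap as deposited. These levels rested on 32, 34 and 12 fragments in inguinal WAT, 56 and 55 in perigonadal WAT, and 79, 101 and 75 in BAT. The BAT mean was 3.63 times the inguinal mean. The log2 fold change of inguinal WAT against BAT was -1.86 (SE 0.39, limma adjusted p = 0.000984), and -1.88 (SE 0.25, adjusted p = 0.00225) after scaling. Its adjusted p ranged from 1.89e-05 to 0.0833 over 19 alternatives, and the call ended in 1, with no filter on low values.

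Mrps36 (minus strand, chr13:101505895-101514614) had 53.1, 51.2 and 24.5 FPKM in inguinal WAT, 82.8 and 61.9 in perigonadal WAT, and 119, 128 and 113 in BAT. All BAT values exceeded all white values. After scaling, the white libraries lay close together, at 44.6, 45.9 and 46.0 in inguinal and 46.1 and 54.9 in perigonadal WAT, and the BAT libraries at 131, 145 and 131. The log2 fold change against BAT in inguinal WAT was -1.54 (SE 0.38, limma adjusted p = 0.00851) as deposited and -1.55 (SE 0.15, adjusted p = 0.000405) scaled. As deposited the call was lost without any 1 of the BAT libraries, with an adjusted p of 0.0737, 0.0965 and 0.0553 without replicates 1, 2 and 3. The scaled call held when each of the 8 libraries was left out.

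Mrpl36 (plus strand, chr13:73468457-73469626), a small protein of bacterial type in the large subunit, had 17.3, 11.8 and 4.2 FPKM in inguinal WAT, 15.3 and 20.5 in perigonadal WAT, and 26.3, 29.3 and 28.1 in BAT. The BAT libraries were close to one another and above all white ones. The fragments behind these values numbered only 24, 16 and 5 in inguinal WAT and 33, 38 and 35 in BAT. The log2 fold change in inguinal WAT was -1.44 (SE 0.42, limma adjusted p = 0.0455) as deposited and -1.48 (SE 0.28, adjusted p = 0.0153) scaled. The deposited call was lost in 10 of 19 alternatives, among them those without inguinal replicate 2 or 3 or any BAT library, with adjusted p-values up to 0.395. The scaled call was lost without inguinal replicate 3 or BAT replicate 2.

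A further 7 members were called lower in inguinal WAT after scaling but not as deposited. Mrpl54, a mitochondria-specific protein of the large subunit, had 18.8, 21.2 and 7.85 FPKM in inguinal WAT, 18.6 and 11.8 in perigonadal WAT, and 31.8, 40.3 and 38.9 in BAT. Its log2 fold change was -1.27 as deposited (limma adjusted p = 0.0990) and -1.29 scaled (adjusted p = 0.00272). Mrpl14, a bacterial-type protein on the face of the large subunit that meets the small one, had 17.8, 13.9 and 4.15 FPKM in inguinal WAT, 18.7 and 10.6 in perigonadal WAT, and 28.7, 22.7 and 26.2 in BAT. Its scaled log2 fold change was -1.28 (limma adjusted p = 0.0113). In both genes each BAT library exceeded each white library.

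Mrpl13, a bacterial-type protein of the large subunit, had 25.9, 34.7 and 12.6 FPKM in inguinal WAT, 33.8 and 33.4 in perigonadal WAT, and 57.3, 35.9 and 55.8 in BAT. BAT replicate 2 was here only just above the highest white library, and the scaled log2 fold change was -1.09 (limma adjusted p = 0.0311). Mrpl30, likewise of bacterial type, had 40.5, 33.4 and 16.9 FPKM in inguinal WAT, 44.7 and 37.1 in perigonadal WAT, and 57.3, 67.6 and 49.1 in BAT. Mrpl34, another small bacterial-type protein of this subunit, had 42.7, 35.0 and 26.4 FPKM in inguinal WAT, 43.0 and 37.7 in perigonadal WAT, and 66.8, 76.7 and 52.9 in BAT. For both, BAT lay above every white library, with scaled log2 fold changes of -1.0 (limma adjusted p = 0.0119) for Mrpl30 and -0.92 (adjusted p = 0.0438) for Mrpl34.

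The remaining 2 encode small subunit proteins. Mrps21 had 73.8, 55.7 and 36.7 FPKM in inguinal WAT, 74.6 and 66.9 in perigonadal WAT, and 109, 114 and 84.1 in BAT, with no overlap between BAT and either white depot. Its scaled log2 fold change was -0.93 (SE 0.20, limma adjusted p = 0.0280). Mrps24, which sits near the mRNA entry, had 17.2, 12.5 and 5.61 FPKM in inguinal WAT, 13.3 and 10.8 in perigonadal WAT, and 25.2, 26.4 and 17.1 in BAT. As deposited, BAT replicate 3 was level with inguinal replicate 1, while scaled values did not overlap and gave a log2 fold change of -1.03 (SE 0.21, limma adjusted p = 0.0220). Without BAT replicate 1 the scaled count for inguinal WAT fell from 10 to 5 (Mrpl30, Mrpl36, Mrpl42, Mrpl54 and Mrps36). Leaving out another BAT or an inguinal library left 7 or 8. The share of all genes called in those fits is not given here.

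**Figure D3:**
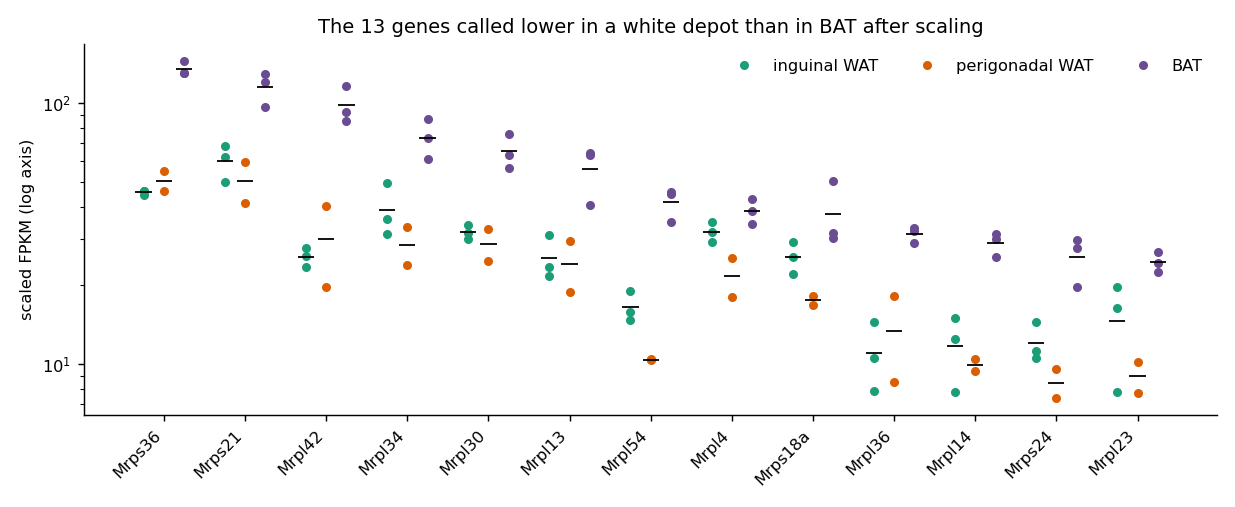
Scaled FPKM (log axis) of the 13 genes called lower in a white depot than in BAT, 1 point per library and the group mean as a line, ordered by the BAT mean. In Mrps36 the white libraries lie between 44.6 and 54.9 and the BAT libraries between 131 and 145, while in Mrpl4, at 18.1 to 35.1 in white and 34.3 to 42.9 in BAT libraries, the groups touch.

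At the other end, no member was called higher in inguinal WAT than in BAT. The highest log2 fold changes as deposited were 0.48 for Mrps5, 0.27 for Mrpl16 and 0.16 for Mrpl17. Mrps5, a bacterial-type protein of the small subunit near the mRNA entry, had 15.3, 11.9 and 6.43 FPKM in inguinal WAT, 12.2 and 11.8 in perigonadal WAT, and 6.18, 7.06 and 8.93 in BAT. Inguinal replicates 1 and 2 were above BAT and replicate 3 within it (limma adjusted p = 0.941). After scaling the inguinal values of 12.8, 10.7 and 12 all exceeded the BAT values of 6.81, 7.99 and 10.3, and the adjusted p by limma was 0.254. This was the 1 member of 76 (background 13.2%) whose scaled groups separated upwards, while 30 separated downwards (background 11.8%). Mrpl16 had 24.8, 20.8 and 14.7 FPKM in inguinal WAT and 11.2, 21.6 and 17.3 in BAT, so the groups overlapped.

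The second comparison set purified RNA of perigonadal WAT against that of BAT. Here the sign of the family's median and the number of calls changed with the scale. The family's median lay below that of all genes on both scales. As deposited, the median log2 fold change of the family was 0.04, against 0.52 over all genes tested, whereas after scaling it was -0.59 against 0.02, and after quantile normalization -0.45. Limma called 0 of 76 members in either direction as deposited, with 0.268% of all genes called lower, 4.91% higher and 5.18% either way, and 2 members had an unadjusted p under 0.05, both lower, against 1.11% of all genes lower and 20.4% higher. After scaling, limma called 13 members lower and 0 higher, with 3.49% of all genes called lower, 2.61% higher and 6.11% either way. At an unadjusted p under 0.05, limma had 41 members lower and 0 higher, against 11.4% and 9.0% of all genes. The log2 fold change was below 0 in 34 of 76 members as deposited, against 14.5% of all genes, and in 74 scaled, against 48.0%. The deposited median turned to -0.13 without perigonadal replicate 1 (all genes 0.26) and rose to 0.23 without perigonadal replicate 2 (all genes 0.78). Groups did not overlap, with perigonadal WAT lower, for 16 members as deposited (background 3.72%) and for 50 scaled (background 19.6%). With perigonadal WAT higher, these counts were 12 (background 48.3%) and 0 (background 19.9%).

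**Figure D4:**
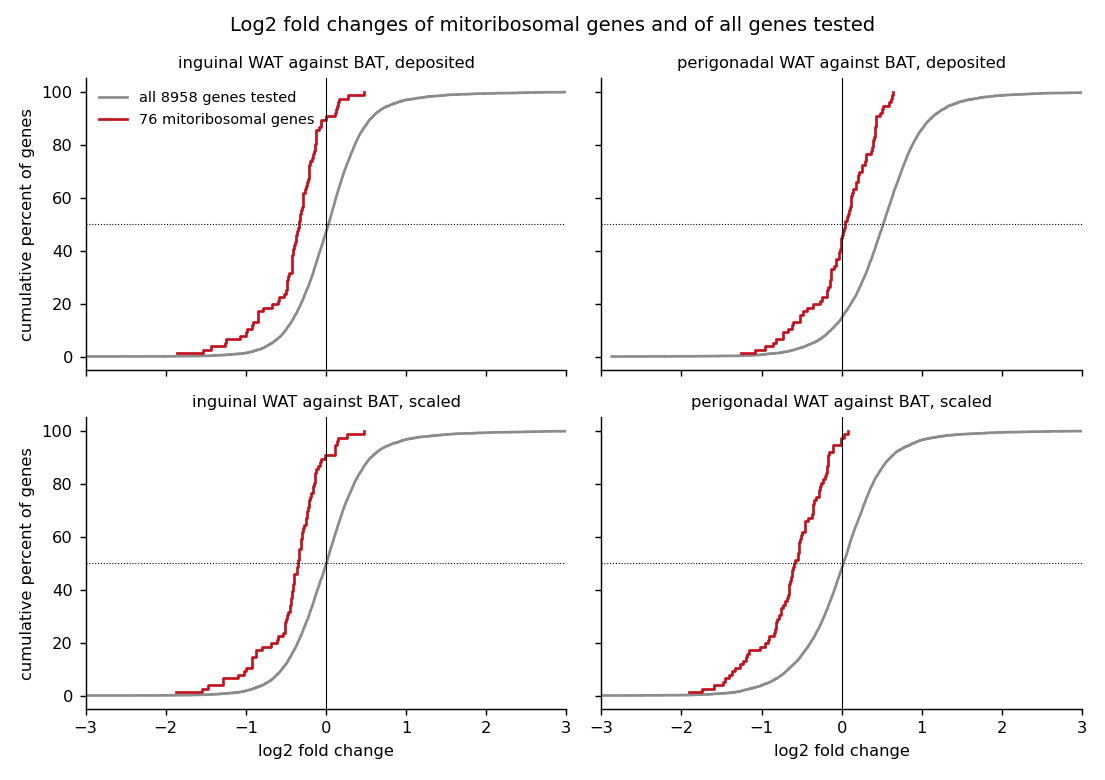
Cumulative percent of genes by log2 fold change (x axis) for the 76 mitoribosomal genes and all 8958 genes tested, as deposited (top) and scaled (bottom), for inguinal WAT (left) and perigonadal WAT (right) against BAT. The mitoribosomal curve lies left of the curve of all genes in each panel, and scaling shifts both curves for perigonadal WAT, whose medians move from 0.04 and 0.52 to -0.59 and 0.02.

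Mrpl54 differed most between perigonadal WAT and BAT. Its scaled FPKM was 10.4 in both perigonadal libraries and 35.0, 45.6 and 44.7 in BAT, and the BAT mean was 4.02 times the perigonadal mean. The log2 fold change was -1.90 (SE 0.20, limma adjusted p = 0.00096) scaled and -1.26 (SE 0.46, adjusted p = 0.0954) as deposited. Mrpl42 followed among the genes called, at 19.7 and 40.3 scaled FPKM against 92.1, 117 and 85.1 in BAT. Its perigonadal libraries differed from each other by more than any pair of inguinal ones, and its log2 fold change was -1.75 (SE 0.27, limma adjusted p = 0.00614). Mrps36 was at -1.41 (SE 0.17, limma adjusted p = 0.00159).

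Mrps24 had 7.38 and 9.57 scaled FPKM in perigonadal WAT against 27.8, 29.8 and 19.7 in BAT, a log2 fold change of -1.49 (SE 0.24, limma adjusted p = 0.00625). Mrpl14 had 10.4 and 9.37 against 31.6, 25.6 and 30.2 in BAT, a log2 fold change of -1.46 (SE 0.25, limma adjusted p = 0.00942). Mrpl23, a bacterial-type protein beside the tunnel exit, had 10.2 and 7.73 scaled FPKM in perigonadal WAT, 22.4, 24.4 and 27.0 in BAT, and 7.82, 19.6 and 16.3 in inguinal WAT. Its perigonadal libraries lay below all BAT libraries and its inguinal ones were scattered. Its log2 fold change was -1.37 (SE 0.32, limma adjusted p = 0.0322) in perigonadal WAT and -0.80 (adjusted p = 0.152) in inguinal WAT.

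Mrpl34 was at -1.34 (SE 0.25, limma adjusted p = 0.0125) in perigonadal WAT and Mrpl36 at -1.27 (SE 0.31, adjusted p = 0.0380). The other called genes were Mrpl13, Mrpl30, Mrps21, Mrpl4 and Mrps18a. Mrpl4, which lines the exit tunnel, and Mrps18a, a mitochondrial protein of the large subunit despite its name, were called in perigonadal but not in inguinal WAT, as was Mrpl23. Tested between the white depots, none of these 3 passed. The 10 members called in inguinal WAT were all among the 13 called in perigonadal WAT, which are 100 percent of the first and 76.9 percent of the second list. Both lists were measured against the same 3 BAT libraries, so the overlap is given as a count only. The scaled count for perigonadal WAT changed with the libraries fitted: it was 8 without BAT replicate 1 and 17 without inguinal replicate 3. Without perigonadal replicate 1 the family's scaled median was -0.46 (all genes 0.01), from -0.59. The share of all genes called with a library left out is not given here, so these changes are not read as particular to the family. As deposited the count for perigonadal WAT was 5 without inguinal replicate 3.

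Mrps18c, the small subunit protein, had the third largest scaled difference, -1.59, yet it was not called (SE 0.58, limma adjusted p = 0.144). Its FPKM was 26.3, 24.8 and 2.15 in inguinal WAT, 14.6 and 8.43 in perigonadal WAT, and 14.7, 26.6 and 29.1 in BAT. The perigonadal libraries rested on 14 and 6 fragments and the BAT libraries on 8, 15 and 17. Inguinal replicate 3, which rested on 1 fragment, enters the shared estimate of spread: without it Mrps18c was called lower on both scales, as it was with a replicate block on deposited values, and its adjusted p by limma ranged from 0.0424 to 0.688 over 19 alternatives. The highest log2 fold changes in perigonadal WAT as deposited were 0.64 for Mrps5, 0.63 for Mrpl3 and 0.61 for Mrps22, and these were 0.03, -0.02 and -0.01 after scaling. Mrpl3, a bacterial-type protein close to the catalytic centre, had 21.8 and 19.3 FPKM in perigonadal WAT and 10.7, 15.7 and 12.8 in BAT as deposited, without overlap, and 12.1 and 17.1 against 11.8, 17.8 and 14.8 scaled, with overlap.

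Between the white depots no member passed the test on either scale. As deposited 0.703% of all genes were called (0.301% higher and 0.402% lower in inguinal WAT), and scaled 0.313%, all higher. All inguinal values lay below all perigonadal ones for 16 members as deposited (background 27.5%) and for 3 scaled (background 11.4%), and above them for 0 (background 1.44%) and 15 (background 12.1%). Limma gave an unadjusted p under 0.05 for 1 member as deposited, which was lower in inguinal WAT (all genes 11.2% lower and 1.22% higher), and for 6 scaled, which were higher (all genes 2.76% lower and 4.80% higher). The median log2 fold change of inguinal against perigonadal WAT was -0.39 for the family and -0.50 for all genes as deposited, and turned to 0.24 against -0.01 scaled and 0.14 after quantile normalization. Single libraries moved these medians: as deposited the family was at -0.11 without inguinal replicate 3 (all genes -0.24) and at -0.24 without perigonadal replicate 1 (all genes -0.26). Scaled it was at 0.055 without perigonadal replicate 1 and at 0.38 without perigonadal replicate 2. The lowest values as deposited were those of Mrpl24 (-0.92), Mrpl2 (-0.90), a core protein of the large subunit, and Mrps23 (-0.83), a mitochondria-specific protein of the small one. Mrpl24, which in bacteria starts assembly of the large subunit, had 5.92, 6.10 and 3.20 FPKM in inguinal and 12.9 and 7.98 in perigonadal WAT, without overlap (limma adjusted p = 0.399). At the upper end, Mrps18c was at 0.11 as deposited and 0.66 scaled, and Mrpl48 at 0.02 and 0.63 (scaled limma adjusted p = 0.592, 95% interval 0.05 to 1.21).

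The genes called were not spread evenly over transcript lengths. The longest listed transcript of the 76 genes ran from 407 nt in Mrps21 to 6712 nt in Mrpl17, with a median of 1047 nt. The 13 genes called lower in a white depot after scaling had a median of 691 nt and the other 63 a median of 1110 nt. Of the 22 members under 800 nt, 8 were called lower in inguinal and 9 in perigonadal WAT, whereas of the 30 members of 1200 nt or more these counts were 0 and 1. Among all 525 genes tested under 800 nt, 59 were called lower in inguinal and 155 in perigonadal WAT, so short genes in general shared this lean. Across the 76 genes, length and scaled log2 fold change had a Spearman correlation of 0.44 for inguinal and 0.61 for perigonadal WAT against BAT. Over all 8958 genes tested it was 0.19 and 0.37, over 79 oxidative phosphorylation subunits 0.73 and 0.72. These correlations are across genes that share libraries and carry no test.

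Among the shortest and among the longest genes, the family's median lay below that of all genes tested. Under 800 nt the scaled median log2 fold change of inguinal WAT against BAT was -0.66 for members and -0.41 for all genes tested, and at 1200 nt or more it was -0.25 and 0.03. In perigonadal WAT the medians under 800 nt were -1.0 and -0.75, and at 1200 nt or more -0.36 and 0.07. The lean of short members was present in the fragments themselves, before division by length. Members under 800 nt took 24.9, 25.3 and 22.4 percent of the fragments of the 69 single-transcript members in inguinal WAT, 23.4 and 24.9 percent in perigonadal WAT, and 28.7, 30.7 and 30.0 percent in BAT. BAT did not overlap with the white depots. The FPKM credited per fragment and unit length in members under 800 nt was divided by that in members of 1200 nt or more. The ratio was 0.923, 0.914 and 1.07 in inguinal WAT, 0.905 and 0.928 in perigonadal WAT, and 1.09, 1.004 and 0.986 in BAT. In every white library except inguinal replicate 3 it lay below all BAT ratios. Inguinal replicate 3 lay within the range of BAT. The part of RNA length, library preparation or the conversion to FPKM in these differences was not tested.

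**Figure D5:**
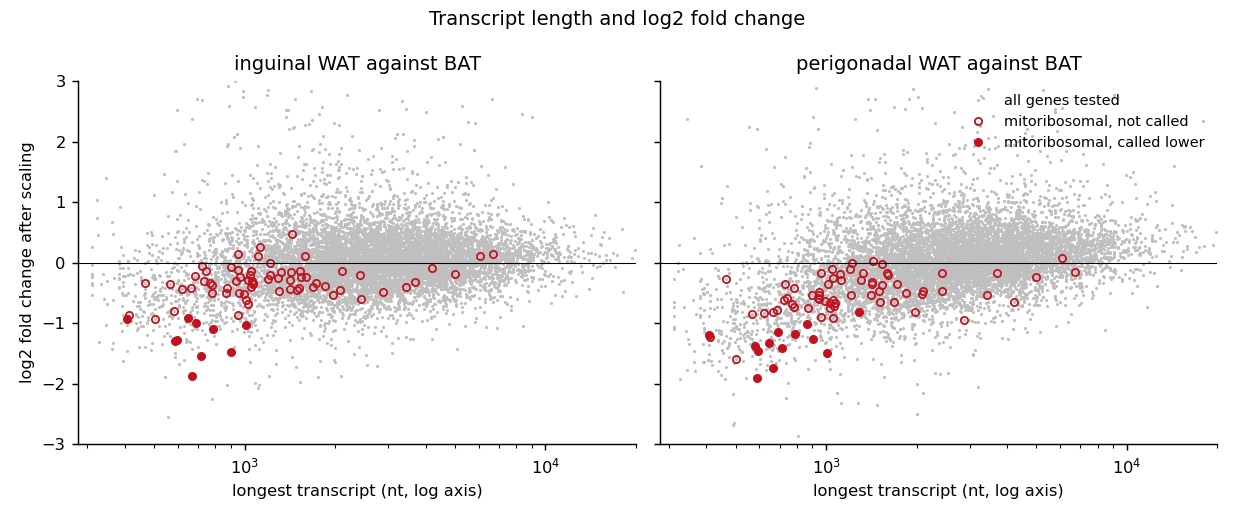
Scaled log2 fold change against BAT (y axis) by length of the longest transcript (x axis, log scale) for inguinal WAT (left) and perigonadal WAT (right): filled points are mitoribosomal genes called lower, open points those not called, grey points all genes tested (y axis limited to -3 to 3). The filled points gather at the short end, where 8 and 9 of 22 members under 800 nt were called.

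Calls fell in genes of both subunits. Of all genes tested, 1.63% were called lower in inguinal and 3.49% in perigonadal WAT after scaling. The scaled median log2 fold change in inguinal WAT was -0.40 over the 49 large subunit genes, with 7 called lower, and -0.29 over the 26 small subunit genes, with 2 called lower. In perigonadal WAT these medians were -0.62 and -0.51, with 10 and 2 called lower. Bacterial-type genes had a scaled median of -0.36 in inguinal and -0.63 in perigonadal WAT, with 7 and 9 of 46 called lower. Among the 29 mitochondria-specific genes 2 were called lower in inguinal WAT, Mrpl42 and Mrpl54, and in perigonadal WAT these and Mrps18a. The 10 mitochondria-specific genes of the small subunit had 0 calls in both, with scaled medians of -0.24 and -0.32. At the shares of all genes called, 0 calls among 10 genes says little. Classes were not tested against each other.

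Other genes of mitochondrial translation were taken from lists drawn up by role. Over all genes, 1.63% were called lower in inguinal and 3.49% in perigonadal WAT after scaling. Of 7 mitoribosomal proteins with other names, 1 was called: Aurkaip1, a small subunit protein at 48.4, 45.7 and 50.6 FPKM in BAT and 37.2 and 40.3 in perigonadal WAT, fell in perigonadal WAT after scaling (log2 fold change -0.97, limma adjusted p = 0.0296). None of 11 translation factors was called in any comparison by limma on either scale. Tufm, the elongation factor that brings aminoacyl-tRNA to the ribosome, had 53.8, 41.5 and 29.7 FPKM in inguinal WAT, 51.8 and 54.4 in perigonadal WAT, and 47.2, 52.8 and 47.2 in BAT. Gfm1, the factor that moves the ribosome along, had means of 33.9, 40.4 and 28.8 FPKM in inguinal WAT, perigonadal WAT and BAT. None of 17 genes for assembly and rRNA modification was called either. Mpv17l2, the highest of them, had means of 14.1, 20.6 and 10.8 FPKM in the same order of depots. Oxa1l, the membrane insertase that receives nascent chains, had means of 9.14, 11.8 and 11.7 FPKM.

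Of 20 mitochondrial aminoacyl-tRNA synthetases and partners tested, 2 were called lower in both white depots after scaling and 0 as deposited. Gatc, a subunit of the enzyme that makes glutaminyl-tRNA, had 4.33, 4.92 and 1.42 FPKM in inguinal WAT, 4.47 and 2.25 in perigonadal WAT, and 8.23, 6.99 and 7.03 in BAT. Its scaled log2 fold changes were -1.05 in inguinal (limma adjusted p = 0.0181) and -1.53 in perigonadal WAT (adjusted p = 0.00452). Yars2, the tyrosine enzyme, was at -0.71 (limma adjusted p = 0.0467) and -0.89 (adjusted p = 0.0243). None of 13 genes for replication, transcription and mRNA upkeep of mitochondrial DNA was called. Hsd17b10, the highest of them, had means of 28.6, 35.2 and 36.5 FPKM in inguinal WAT, perigonadal WAT and BAT. Tfb2m, a factor for transcription start, had means of 15.0, 21.4 and 16.5 FPKM.

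Of 8 regulators tested, Myc, a transcription factor that drives ribosome genes, was called lower in both white depots as deposited. It stood at 1.17, 0.165 and 0.663 FPKM in inguinal WAT, 1.08 and 0 in perigonadal WAT, and 3.81, 1.10 and 6.14 in BAT, low values that scattered widely. Its log2 fold changes were -1.37 (limma adjusted p = 0.0473) and -1.53 (adjusted p = 0.0269), and neither call held after scaling (adjusted p = 0.111 and 0.0563). Esrra, the orphan receptor that acts with the coactivator PGC-1 alpha on genes of respiration, had 31.1, 30.7 and 15.3 FPKM in inguinal WAT, 34.4 and 28.1 in perigonadal WAT, and 38.1, 41.9 and 34.2 in BAT. It was called lower in perigonadal WAT after scaling (log2 fold change -0.94, limma adjusted p = 0.0162). For comparison, scaled calls among 79 oxidative phosphorylation subunits were 11 lower in inguinal and 39 lower in perigonadal WAT, with 0 higher in either. Among 78 cytosolic ribosomal proteins they were 10 and 35 lower, with 1 and 0 higher.

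Promoter sequence was available for 67 of the 76 genes, from 250 bases before to 50 bases after the RefSeq start (GRCm38.p6). Motif letters were searched on both strands. CCGGAAG, the core bound by GABP and other ETS factors, was present in 34.3 percent of member promoters and in 8.86 percent of all 32851 promoters of that length. CGCATGCG, the core of the NRF1 site, was present in 10.4 and 1.87 percent, and AAGATGGCG, the letters of the YY1 site, in 11.9 and 1.40 percent. GGGCGG, bound by SP1, was present in 49.3 and 35.7 percent, CCAAT in 40.3 and 37.4 percent. Each member entered with 1 promoter, while the background took every listed promoter, whether or not its gene passed the filter. The 2 sets are therefore unlike in more than family. Such letters overlap with GC-rich sequence in general and are not measured binding.

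Among the 13 genes called lower after scaling, 10 had a promoter in the table, and 4 of these 10 held the YY1 letters, compared with 4 of the 57 others. The motif was singled out after these counts were seen, and no test was made. The NRF1 letters were in 0 of 10 and 7 of 57, the GABP letters in 3 of 10 and 20 of 57. The windows with the YY1 letters are shown because this was the motif whose share differed most between called and other genes; capitals mark the match, in the direction of the gene, and reverse-strand matches read CGCCATCTT. The first 4 were called lower, the last 4 were not.
Mrpl36 (GRCm38.p6, chr13:73330968-73330997, plus strand): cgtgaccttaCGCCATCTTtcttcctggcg
Mrpl42 (GRCm38.p6, chr10:95501903-95501932, minus strand): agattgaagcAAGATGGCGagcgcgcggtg
Mrps18a (GRCm38.p6, chr17:46111005-46111034, plus strand): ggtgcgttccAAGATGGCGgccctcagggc
Mrps24 (GRCm38.p6, chr11:5707652-5707681, minus strand): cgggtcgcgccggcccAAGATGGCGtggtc
Mrpl35 (GRCm38.p6, chr6:71823742-71823771, minus strand): ggcaggctgcAAGATGGCGgcttccatctt
Mrpl37 (GRCm38.p6, chr4:107066821-107066850, minus strand): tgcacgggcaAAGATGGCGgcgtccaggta
Mrps11 (GRCm38.p6, chr7:78783013-78783042, plus strand): ctacgggcgcCGCCATCTTtctgtcttccc
Mrps27 (GRCm38.p6, chr13:99344790-99344819, plus strand): ggtgcgctccAAGATGGCGgctcccatggt

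In 6 of these 8 genes the match began 12 to 37 bases downstream of the RefSeq start, counting the start as 1, that is, in the first transcribed bases. The letters searched include ATG, and whether these matches hold a translation start was not examined. In Mrpl36 it began 31 and in Mrps11 108 bases upstream, on the reverse strand. The level of Yy1 mRNA itself was 3.51, 4.29 and 0.971 FPKM in inguinal WAT, 9.07 and 5.70 in perigonadal WAT, and 3.19, 1.30 and 3.55 in BAT, and it was not called (limma adjusted p = 0.997 and 0.103 against BAT as deposited).

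Members often started back to back with another gene. In the files' own coordinates, 26 of 76 (34.2 percent) had a gene starting in the opposite direction within 1000 nt, compared with 1371 of 8743 coding genes tested (15.7 percent). Mrpl46 and Mrps11, a large and a small subunit gene, share such a stretch with starts 42 nt apart, and Mrps12 and Sars2, the mitochondrial serine-tRNA synthetase, lie 187 nt apart. Among the called genes Mrpl13 starts 96 nt from Mtbp, Mrpl30 142 nt from Mitd1, Mrpl14 154 nt from Tmem63b and Mrps21 903 nt from C920021L13Rik. Mtbp and C920021L13Rik were not among the genes tested. The scaled log2 fold changes of the other neighbours in inguinal WAT were -0.34 for Tmem63b (limma adjusted p = 0.373) and 0.19 for Mitd1 (adjusted p = 0.784), so neither of these was called. Exons of 9 members overlap those of another gene, and strand-specific counting is not stated, so reads of the members concerned (Mrpl19, Mrpl24, Mrpl41, Mrpl48, Mrpl49, Mrpl53, Mrps6, Mrps25 and Mrps27) could include those of the partner.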

How the data were processed

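The submitters' processing notes name TopHat, Cufflinks and the mouse build mm9, without versions. The authors deposited 1 table per library with FPKM and its confidence bounds for 28702 transcripts of 22552 gene symbols. Cufflinks options, and whether libraries were scaled, are not stated there. FPKM was summed per gene. Fragments of genes with 1 transcript were recovered from FPKM and its upper bound, and 91.3 percent came out whole within 0.05. They are not independent molecules.

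The filter kept 8958 genes that reached 1 FPKM in 2 or more libraries and had a transcript of 300 nt or longer. Limma 3.58.1 in R 4.3.3, with a trend of variance on expression, was fitted to log2(FPKM + 1) over all 8 libraries, two-sided. P-values were adjusted by Benjamini-Hochberg per comparison (3 comparisons, threshold 0.05). These fold changes understate changes of low genes, and ratios are of mean FPKM. Size factors were median ratios over 8577 genes above 0 in all libraries. The fit was tested on simulated data. Sums and ratios were made in Python 3.11.15 (numpy 2.4.6, pandas 2.3.3), and matplotlib 3.10.9 drew the figures.

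The members and lists were chosen with earlier results of these data known. Members named were those called (at most 8 per comparison, direction and scale), the 3 highest and 3 lowest fold changes per comparison, the 6 highest and 3 lowest means, and 4 by role. Of a list, up to 4 called genes or otherwise 2 of the highest were named. Mrpl4, Mrps18a, the genes with YY1 letters, the Yy1 gene and genes named for their position were added after values were seen. Alternatives covered pseudocounts of 0.1 and 5, filters, scaling, quantile normalization, the groups fitted, the variance trend, the replicate block, the most abundant transcript and each library left out.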

Additional observations from a re-analysis of the deposited data

How the results depend on the processing

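Over the 93 alternatives for the 9 counts and sums, 72 stayed within the limits set (1.5 times a count, 1 SD of a sum). Members called for inguinal WAT against BAT numbered 3, and 10 after median-ratio scaling, 9 after quantile normalization, 0 with no filter on low values, 5 with a replicate block, and 1 to 3 with 1 library left out. The scaled count of 10 ranged from 5 to 10 with 1 library left out and was 8 with the block. For perigonadal WAT against BAT the count was 0, and 13 scaled, 8 after quantile normalization, 2 with only the groups compared, 3 with the block (10 scaled), and 0 to 5 with 1 library left out. The scaled count of 13 ranged from 2 to 17 with 1 library left out. No alternative gave a call between the white depots. Apart from the scaled fit of all libraries, the share of all genes called under these alternatives is not given here. Changes in the counts are therefore not read as particular to the family. The ratio of summed FPKM of perigonadal WAT to BAT was 0.881 as deposited, 0.551 scaled, 0.640 as a share of the total and 0.665 as a share without the 10 most abundant genes. Inguinal to perigonadal WAT was 0.779, and 1.19, 1.13 and 1.10 in the same order.

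Of 551 alternatives for single genes, 484 kept direction and call, 36 gained a call, 15 lost one and 16 reversed. Scaling turned Mrpl3 from 0.63 to -0.016 and Mrps22 from 0.61 to -0.0066 in perigonadal WAT against BAT. In inguinal against perigonadal WAT, Mrpl54 went from -0.01 to 0.61 scaled, 0.55 by quantiles, 0.0077 with pseudocount 5, 0.18 with the replicate block, and between -0.32 and 0.41 with a library left out. Mrpl48 went from 0.02 to -0.083 with the most abundant transcript and to between -0.11 and 0.23 with a library left out, Mrps18c, from 0.11, to between -0.43 and 1.13, and Mrpl17, from 0.16 (inguinal WAT against BAT), to between -0.0059 and 0.45. The cause was not tested.

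Whether equal replicate numbers pair these libraries could not be decided. Deviations from group means correlated at 0.13, 0.08 and 0.10 between inguinal WAT and BAT libraries of equal number. Between those of unequal number the correlations ran from -0.08 to -0.03. Deviations within a group sum to 0, which ties unequal pairs to equal ones. Equal numbers gave -0.03 and -0.09 between the white depots, and -0.01 and -0.02 between perigonadal WAT and BAT. With 2 perigonadal libraries the deviations mirror each other, so values involving perigonadal WAT say little. Leaving out a perigonadal library leaves 1, whose spread is assumed like that of the other groups. Options added after the data were seen were leave-one-out fits and the block on scaled values, and the share of the total. A median of 28 fragments per gene and library limits what could be detected.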

Other observations

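Of the 7 members with more than 1 listed transcript, 2 are given here as examples of FPKM credited to different transcripts from library to library. Mrps10, a small subunit protein, was listed with transcripts of 1017, 1020 and 1110 nt. The 1020 nt transcript had 12.2 and 13.9 FPKM in inguinal replicates 1 and 2 and at most 0.0185 FPKM in the other 6 libraries. The 1017 nt transcript had 0.860 FPKM or less in those 2 inguinal libraries and 4.19 in inguinal replicate 3, 13.2 and 11.2 in perigonadal WAT, and 12, 7.11 and 6.22 in BAT. Summed over transcripts, Mrps10 had 12.2, 17.1 and 4.2 FPKM in inguinal WAT, 13.2 and 11.3 in perigonadal WAT, and 12, 7.11 and 7.94 in BAT, so the groups overlapped. Mrps36 was listed with transcripts of 710 and 716 nt, and the 710 nt transcript had 15.8 and 24.5 FPKM in inguinal replicates 2 and 3, 10.2 in perigonadal replicate 1, and 8.64 and 29.7 in BAT replicates 1 and 3, with values near 0 in the other 3 libraries. Cufflinks divides fragments between similar transcripts, and the split was not tested. These genes were chosen after their values were seen.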
